A study of Homo sapiens with 4 samples.

Results

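The 10 genes described here encode the core proteins of microRNA processing and RNA silencing: DROSHA and DGCR8, the export receptor gene XPO5, DICER1 with its partner genes TARBP2 and PRKRA, and the Argonaute genes AGO1, AGO2, AGO3 and AGO4. They were chosen by name, as genes of the pathway in which LGP2 has binding partners; the choice was made with earlier results of these data known. The platform annotation tied 11 of 21706 named probes to these 10 genes, of 18639 genes in all, with 2 probes for DGCR8 and 1 for each other gene. RNA came from HEK293, a permanent line made from human embryonic kidney. The transgene in the cells was either LGP2-4KR, which the labels leave undefined beyond that name, or LGP2, the RIG-I-like helicase encoded by DHX58. The 4 groups were 4KR cells transfected with short poly I:C (100 ng/ml) and sampled at 12 h, 4KR cells without stimulation (0 h), LGP2 cells 12 h after the same transfection, and LGP2 cells without stimulation. Short poly I:C is a synthetic double-stranded RNA, and it was delivered with a lipid reagent. Each group was measured on 1 array, and no array of cells that received the transfection reagent alone, of cells kept for 12 h without poly I:C, or of HEK293 cells without a transgene was among the samples, so transfection, culture time and poly I:C cannot be told apart. The labels do not say which promoter drives the transgenes or whether a line is 1 clone.

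MicroRNAs are cut from a primary transcript in the nucleus by the Microprocessor, which joins the nuclease DROSHA to the RNA-binding protein DGCR8. Exportin-5, the product of XPO5, carries the hairpin to the cytoplasm, where DICER1, bound by TRBP (TARBP2) or PACT (PRKRA), cuts it to a duplex. An Argonaute protein keeps a single strand of that duplex and is guided by its seed, bases 2 to 8, to messenger RNAs, and of the human Argonautes AGO2 is the one known for strong target cleavage. TRBP and PACT also act in the response to viral double-stranded RNA, TRBP as an inhibitor and PACT as an activator of the kinase PKR, and TRBP is a known binding partner of LGP2.

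The arrays carried 27456 spots each, with 24460 gene probes, 384 blanks and 96 negative controls among them. Between 83.2% and 89.2% of gene probes were detected, that is, were brighter than the blank mean plus 2 SD. At 12 h, 20 of 96 negative controls in 4KR cells and 22 in LGP2 cells also passed that limit, against 0 in 4KR cells and 1 in LGP2 cells at 0 h, with net signals of at most 5.78 scanner units. In LGP2 cells the median log2 ratio of 12 h over 0 h departed most from 0 in the array's printed blocks 20 (0.13), 21 (0.10) and 24 (-0.14), and none of these 3 blocks holds a probe of the 10 genes. Of the HEK293 markers, VIM, KRT18, NEFM, NEFL, PAX2 and LIN28B were detected on all 4 arrays, and of these NEFL fell with stimulation. Of the markers of other cell types with a probe, 2 of 4 leukocyte genes (CD3E, CD14), 1 of 4 fibroblast genes (DCN), 2 of 4 endothelial genes (VWF, KDR) and all 4 keratinocyte genes (KRT5, KRT14, KRT1, KRT10) were also detected on all 4 arrays, while PTPRC, COL1A2 and PECAM1 were detected on none. RNA per sample and cell number cannot be told apart in bulk RNA.

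DGCR8 and DICER1 carry microRNA sequences of their own: RefSeq (GRCh38.p14) places the hairpin MIR3618 within DGCR8 and MIR3173 within DICER1. Their mature microRNAs are shown because these hairpins lie within the genes measured here, and the capitals mark the seed. The arrays did not measure them.
hsa-miR-3618: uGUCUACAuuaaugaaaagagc
hsa-miR-3173-5p: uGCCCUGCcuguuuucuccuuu
hsa-miR-3173-3p: aAAGGAGGaaauaggcaggcca

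Upstream sequence set the silencing genes beside genes of the interferon response. The RefSeq promoter table, which spans 250 bases before to 50 after each gene's start, held 9 of the 10 genes (not AGO2) and 5 of 8 genes used for comparison. These 8 are called interferon-induced here, although IFNB1 among them encodes an interferon itself. The core of the interferon-stimulated response element, spelled GAAA, any 2 bases and GAAA, was searched on both strands of the 250 bases before the start and was in 0 of 9 silencing promoters, in 4 of 5 promoters of interferon-induced genes (80%) and in 431 of 15843 promoters of protein-coding genes (2.72%). The promoter of the interferon-induced set without this core was that of IFNB1. TATAAA, searched in the same way, was in 0 of 9, 2 of 5 and 9.23% of the same sets. The silencing promoters had a median GC content of 72.4%, against 40.8% in the interferon-induced genes and 62.4% in all, with the highest value, 80%, in DGCR8 and AGO3 and the lowest, 58.8%, in TARBP2. At the shares of all protein-coding promoters, 0 of 9 is near the background for both motifs. The absence of these letters says nothing of whether a factor binds. The upstream 250 bases of DICER1 (chr14:95157530-95157779, minus strand), DGCR8 (chr22:20079991-20080240, plus strand) and IFIT1 (chr10:89392373-89392622, plus strand) are printed as examples. IFIT1 is an interferon-induced gene whose response is given below. Capitals mark the matches to the response element core, here on the opposite strand, which start 116 and 103 bases before the start of IFIT1.
DICER1: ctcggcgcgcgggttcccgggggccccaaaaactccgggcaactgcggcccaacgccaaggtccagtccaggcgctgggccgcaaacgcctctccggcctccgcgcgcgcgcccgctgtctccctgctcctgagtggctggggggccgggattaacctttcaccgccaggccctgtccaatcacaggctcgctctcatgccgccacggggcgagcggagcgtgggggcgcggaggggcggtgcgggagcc
DGCR8: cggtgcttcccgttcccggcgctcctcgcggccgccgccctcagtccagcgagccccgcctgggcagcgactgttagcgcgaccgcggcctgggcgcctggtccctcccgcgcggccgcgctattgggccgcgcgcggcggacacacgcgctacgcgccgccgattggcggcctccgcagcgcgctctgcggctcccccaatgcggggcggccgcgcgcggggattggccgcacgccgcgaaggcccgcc
IFIT1: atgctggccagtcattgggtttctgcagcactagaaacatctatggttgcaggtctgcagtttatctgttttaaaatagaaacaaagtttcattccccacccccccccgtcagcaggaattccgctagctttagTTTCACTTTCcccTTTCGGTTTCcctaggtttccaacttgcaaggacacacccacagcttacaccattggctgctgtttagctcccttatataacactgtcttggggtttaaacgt

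Of the Microprocessor genes, DGCR8 was brighter at 12 h in both lines and DROSHA lay near background. DGCR8, the RNA-binding subunit, was read by 2 probes, and in the authors' deposited intensities, which are scaled to an array median of 25, the dimmer one read 15.2 in 4KR cells at 12 h against 10.1 at 0 h. The same probe read 14.9 in LGP2 cells at 12 h against 9.55 at 0 h. The brighter probe read 32.6 in 4KR cells at 12 h against 24.7 at 0 h, and 33.4 in LGP2 cells at 12 h against 24.0 at 0 h. On all 4 pairs the 12 h array was the brighter. Deposited intensities rose at 12 h for many genes. Rises past 1.5-fold outnumbered falls, 2062 to 181 in 4KR cells and 3202 to 140 in LGP2 cells. In log2, the silencing genes' median rise was 0.177 in 4KR cells and 0.245 in LGP2 cells. DGCR8's was 0.495 and 0.561 in the same order. The median of 25 was taken over 21876 values in 4KR cells at 12 h and 20813 at 0 h. In LGP2 cells it was taken over 22308 values at 12 h and 20708 at 0 h. After normexp background correction and quantile normalization, the log2 ratio of 12 h over 0 h, called the response below, was 0.12 in 4KR cells and 0.11 in LGP2 cells for DGCR8. The probes' responses differed by 0.01 in each line, against a median difference of 0.09 in 4KR cells and 0.10 in LGP2 cells over 1943 genes with 2 probes. With plain subtraction of the blank mean, which does not shrink dim probes, they differed by 0.16 in 4KR cells and 0.13 in LGP2 cells, against medians of 0.21 and 0.22 in the same order. DROSHA, the nuclease, was dim: its net signal was 3.93 scanner units in 4KR cells at 12 h and 2.32 at 0 h, and 5.62 in LGP2 cells at 12 h and 1.03 at 0 h. The brightest negative control read 5.78 in 4KR cells at 12 h and 1.32 at 0 h, and 4.88 in LGP2 cells at 12 h and 2.28 at 0 h, so DROSHA was above every negative control on 2 of the 4 arrays. The probe was not well above background in unstimulated LGP2 cells. Its response was -0.02 in 4KR cells and at least 1.01-fold in LGP2 cells, a lower bound. No level of DROSHA can be read beyond that.

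XPO5, the export receptor, had deposited intensities of 120.0 in 4KR cells at 12 h and 110.7 at 0 h, and of 127.1 in LGP2 cells at 12 h and 116.2 at 0 h. Its normalized response was -0.04 in 4KR cells and -0.10 in LGP2 cells. The deposited values stood higher at 12 h while the normalized ratios were below 0, since the scalings differ.

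DICER1, the nuclease that cuts the hairpin, read 58.3 in 4KR cells at 12 h and 47.8 at 0 h, and 58.4 in LGP2 cells at 12 h and 49.3 at 0 h, in deposited intensities. Its normalized response was 0.07 in 4KR cells and -0.02 in LGP2 cells. TARBP2, the gene of TRBP, read 53.9 in 4KR cells at 12 h and 48.2 at 0 h, and 64.1 in LGP2 cells at 12 h and 47.9 at 0 h. Its normalized response was -0.02 in 4KR cells and 0.10 in LGP2 cells. PRKRA, the gene of PACT, read 97.2 in 4KR cells at 12 h and 83.4 at 0 h, and 103.4 in LGP2 cells at 12 h and 85.8 at 0 h, with responses of 0.05 in 4KR cells and 0.01 in LGP2 cells. The 3 genes of the Dicer complex had responses between -0.02 and 0.10 in the lines.

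**Figure D1:**
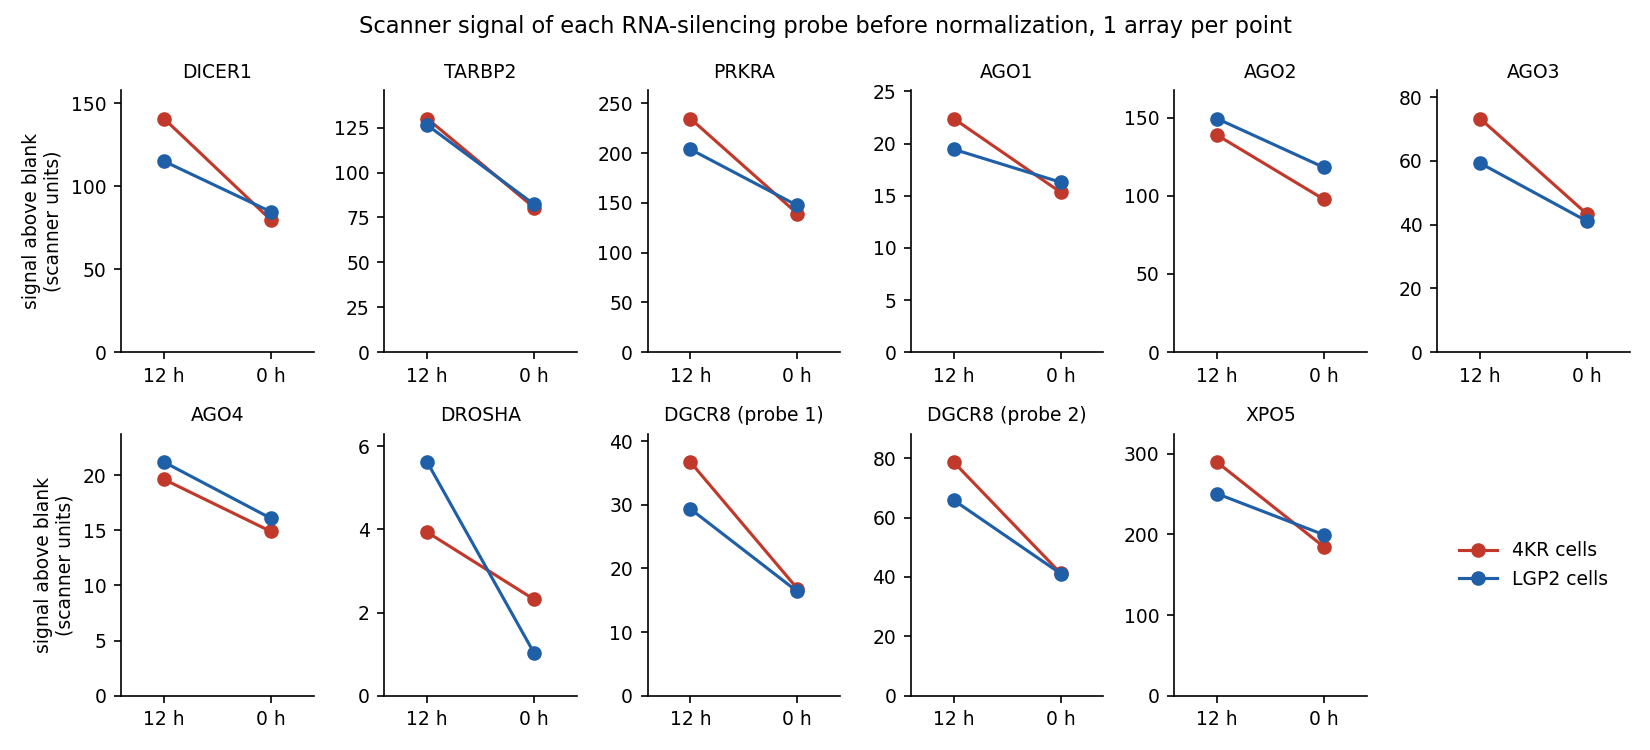
Net signal (scanner units above the blank mean, linear axis from 0) of each of the 11 probes of the 10 RNA-silencing genes, with 1 point per array at 12 h and 0 h and a line joining the arrays of 4KR cells (red) and of LGP2 cells (blue). The 12 h points lie above the 0 h points of the same line for all 11 probes before normalization, and DROSHA stays below 6 units on every array.

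AGO2, the Argonaute known for cleavage of its targets, was lower in 4KR than in LGP2 cells at both times, a difference that did not pass adjustment over all genes. Its deposited intensity was 57.5 in 4KR cells at 12 h and 58.6 at 0 h, and 75.8 in LGP2 cells at 12 h and 68.8 at 0 h, so both 4KR values were below both LGP2 values. The normalized response was -0.15 in 4KR cells and -0.09 in LGP2 cells. AGO1, AGO3 and AGO4, which are neighbours on chromosome 1, had line differences (4KR minus LGP2) between -0.08 and 0.05 at both times, against -0.21 at 12 h and -0.15 at 0 h for AGO2. The offset shrinks the dim AGO4 more than AGO2: with plain subtraction the line effect of the fit was -0.23 for AGO4 and -0.26 for AGO2, and neither passed. AGO3 had deposited intensities of 30.4 in 4KR cells at 12 h and 26.0 at 0 h, and 30.1 in LGP2 cells at 12 h and 23.9 at 0 h, and responses of 0.03 in 4KR cells and 0.04 in LGP2 cells. The dim AGO1 had 9.3 in 4KR cells at 12 h and 9.2 at 0 h, and 9.9 in LGP2 cells at 12 h and 9.50 at 0 h. AGO4 had 8.1 in 4KR cells at 12 h and 8.9 at 0 h, and 10.8 in LGP2 cells at 12 h and 9.39 at 0 h. The responses of AGO1 were -0.05 in 4KR cells and -0.06 in LGP2 cells, and those of AGO4 were -0.08 and -0.03 in the same order of lines.

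The 5 comparisons of single arrays have no test. None of the 10 genes was at least 1.5-fold higher or lower in the response of 4KR cells, beside 1.59% of 16564 detected genes that were higher and 0.423% that were lower. None passed in LGP2 cells, beside 1.88% higher and 0.51% lower of 16675 genes, or, of the 9 members detected on all 4 arrays, in the response of 4KR cells less that of LGP2 cells, beside 0.451% higher and 0.426% lower of 15738. None passed between 4KR and LGP2 cells at 12 h, beside 0.0587% higher and 0.0352% lower, or at 0 h, beside 0.13% higher and 0.341% lower. At these shares, 0 of 10 is near the background. The members' median response was -0.02 in 4KR cells and -0.01 in LGP2 cells, and that of all genes was -0.01 in both. The normexp offset of 50 shrinks the ratios of dim genes, so that a 1.5-fold change of net signal would be read as a log2 ratio of 0.18 for AGO1 and AGO4, 0.22 and 0.34 for the DGCR8 probes, 0.33 for AGO3, 0.42 for DICER1 and TARBP2, 0.44 for AGO2, 0.48 for PRKRA and 0.50 for XPO5, and 0.04 for DROSHA. The 1.5-fold limit lies at 0.58, which a 1.5-fold change of net signal would not reach for any of the 10 genes. The counts of 0 above therefore could not show such a change. Even a 2-fold change of AGO1, AGO4 or DROSHA would stay below the limit, as would that of the dimmer DGCR8 probe (0.41).

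**Figure D2:**
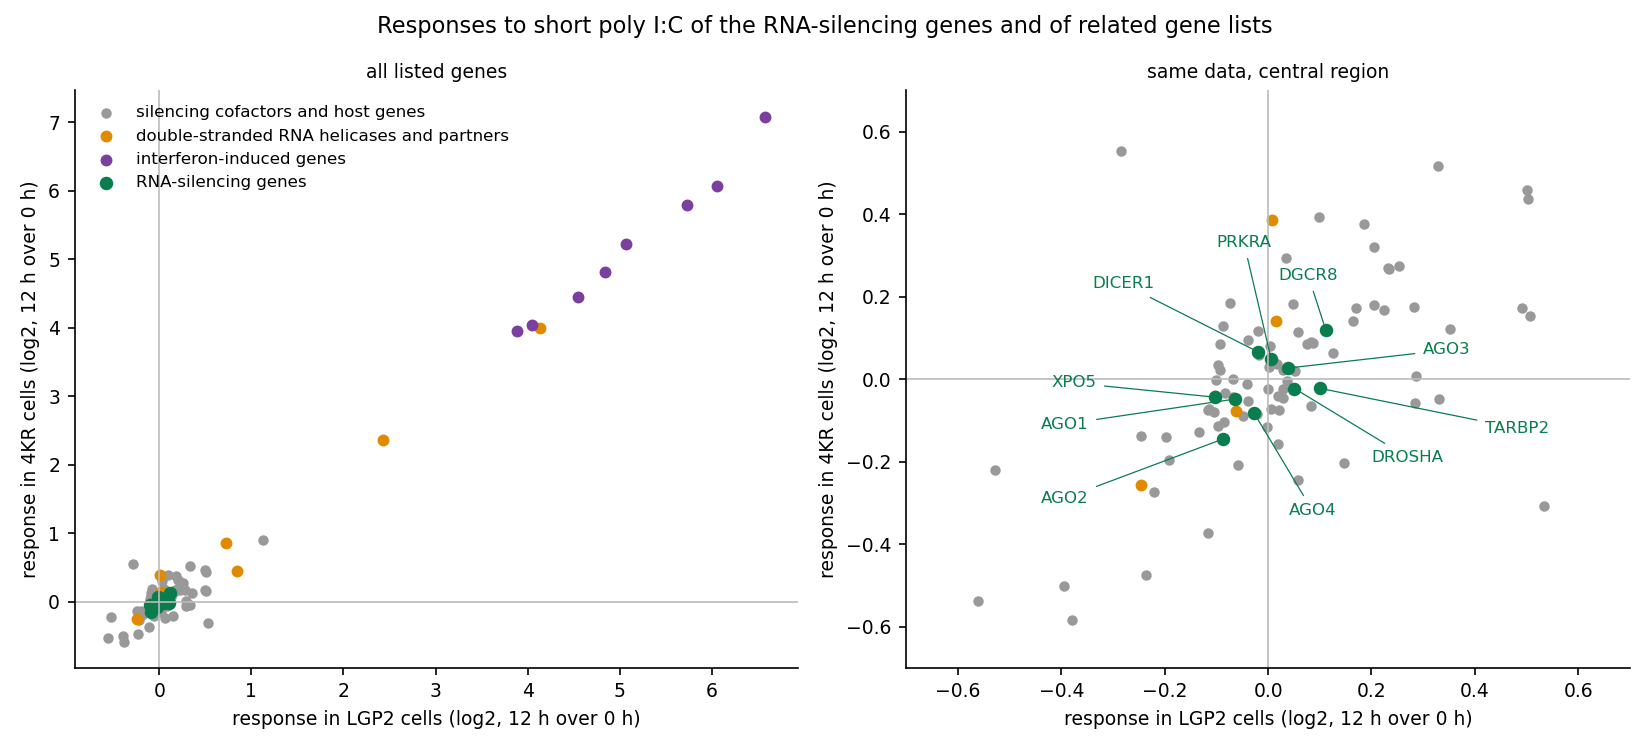
Response to short poly I:C (log2, 12 h over 0 h) in 4KR cells (vertical axis) against LGP2 cells (horizontal axis) for the RNA-silencing genes and the related lists, with all listed genes at the left and the central region enlarged at the right. All 10 RNA-silencing genes lie within 0.15 of 0 on both axes, while the 5 interferon-induced genes detected on all 4 arrays lie between 4.04 and 7.08; OASL, CXCL10 and CCL5 were not well above background at 0 h, and their points are no exact ratios.

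An additive limma fit over both lines and both times, with 1 residual degree of freedom, tested stimulation across all 17085 genes detected on at least 1 array, with Benjamini-Hochberg adjustment. It called 1356 genes higher (7.94%) and 1244 lower (7.28%) at an adjusted p under 0.05, and 0 of the 10 members in either direction. At an unadjusted p under 0.05, which 15.5% of all genes met as higher and 17.3% as lower, 1 member was higher and 1 lower. DGCR8 was higher by 0.12 (95% interval 0.02 to 0.21, limma, adjusted p = 0.101), with both lines above 0. AGO2 was lower by -0.12 (95% interval -0.22 to -0.01, limma, adjusted p = 0.122), with both lines below 0. With plain subtraction of the blank mean, which does not shrink dim genes, the fitted effects of 9 members (without DROSHA) had intervals that lay between -0.56 and 0.56, that is, within 1.5-fold. DROSHA's ran from -1.02 to 1.57. The limit of 1.5-fold did not hold in every setting. With the deposited table DGCR8's interval ran from 0.25 to 0.80 and TARBP2's from -0.03 to 0.61. Without normalization the intervals of PRKRA, TARBP2, DICER1 and XPO5 reached 0.67, 0.63, 0.61 and 0.60. These intervals rest on how far the lines' responses differ and cover no other error. That difference is only in part the gene's own, since limma pools it with the spread over all genes. In the fit as reported the pooled part carried 2.27 degrees of freedom, against 1 for the gene's own.

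The fit's line term tested the difference of 4KR from LGP2 cells, averaged over 12 h and 0 h. It called 0 genes at an adjusted p under 0.05, 0% in either direction, while 386 genes (2.26%) were higher and 445 (2.6%) lower at an unadjusted p under 0.05. AGO2 was the only member with an unadjusted p under 0.05, at -0.18 (95% interval -0.28 to -0.08, limma, adjusted p = 0.872), with log2 differences of -0.21 at 12 h and -0.15 at 0 h. The other 9 members had line effects between -0.06 and 0.05. The 3 genes whose levels over the 4 arrays lay closest to AGO2's, by Euclidean distance of centred log2 levels among 15737 genes, were UXS1 (0.036), ECSIT (0.041) and CYRIB (0.041).

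**Figure D3:**
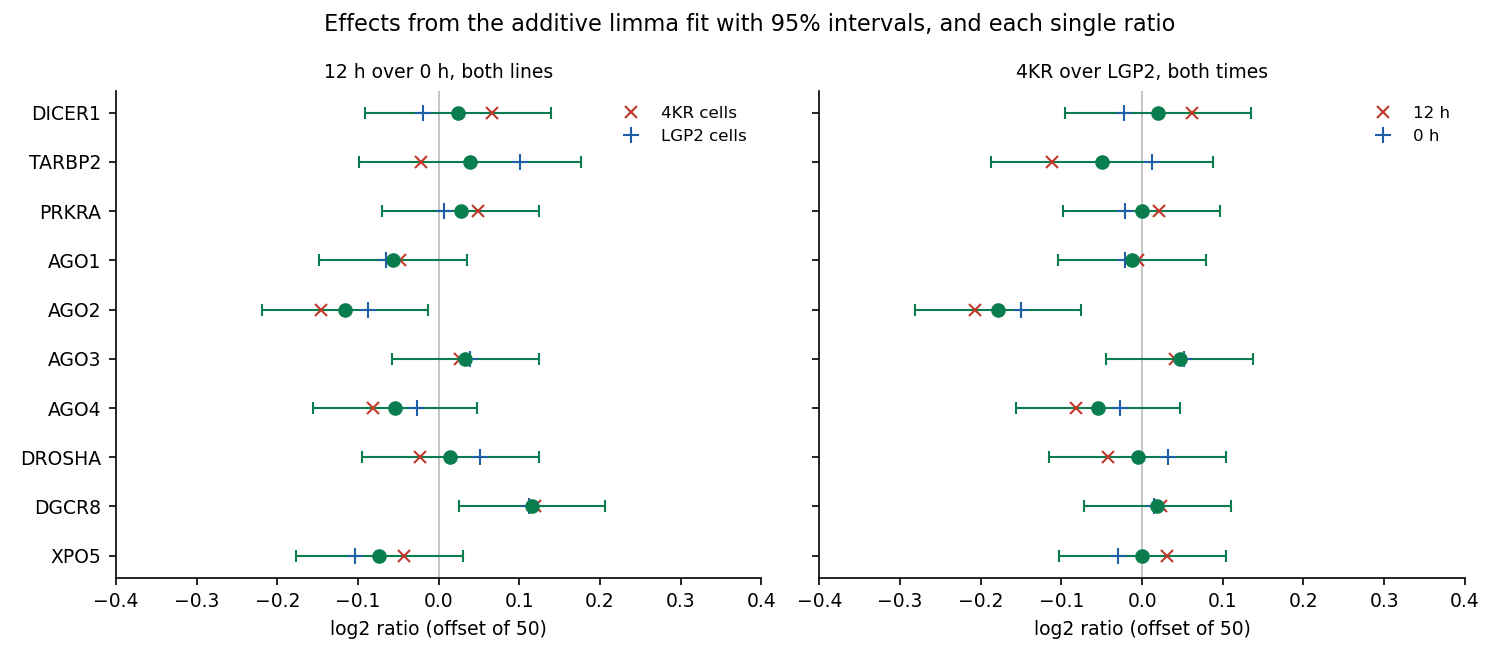
Fitted effect (log2) of stimulation and of line for each of the 10 RNA-silencing genes, as a filled point with its 95% interval from the additive limma fit (1 residual degree of freedom), and the 2 single ratios behind it as a cross (4KR cells, or 12 h) and a plus (LGP2 cells, or 0 h). For stimulation, DGCR8 lies above 0 at 0.12 and AGO2 below at -0.12, for line, AGO2 lies below 0 at -0.18, and none of the 3 passed adjustment over all genes.

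The cofactors of each step were taken from lists chosen with earlier results of these data known. Their counts stand beside the 7.94% of all genes called higher and 7.28% called lower, and none of them was tested against that share. Among 11 nuclear processing cofactors, 3 rose and 0 fell with stimulation: the helicase gene DDX5 and the RNA-binding genes QKI and SAFB, with effects of 0.25, 0.25 and 0.26. SRSF3, a splicing factor that aids hairpin recognition, had responses of 0.17 in 4KR cells and 0.49 in LGP2 cells and did not pass. Its probe lies in block 20, whose median response was 0.13 in LGP2 cells, and the part of that shift in the gene's value was not tested. Of 6 export cofactors, NUP153, a nucleoporin, rose by 1.02 (limma, adjusted p = 0.0244), with a probe in block 20 too, and NUTF2, the import receptor of RAN, fell by 0.45 (limma, adjusted p = 0.0261).

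Of 11 genes for RISC loading and its chaperones, 1 rose and 3 fell. HSPA8, the constitutive HSC70 chaperone, rose by 0.42, and SND1, a nuclease of the silencing complex, fell by 0.55 (limma, adjusted p = 0.0235). MTDH, the binding partner of SND1, fell by 0.25 and TSN, a subunit of the C3PO nuclease, by 0.19. Among 29 GW182 proteins and effectors of silencing, 3 rose and 1 fell. DCP1A and DCP1B, cofactors of decapping, rose by 0.48 and 0.19, XRN1, the exonuclease that degrades decapped messages, rose by 0.26, and PABPC1, the poly(A)-binding protein, fell by 0.48. With plain subtraction, where 0.433% of all genes were called higher and 0 lower, each call named for the cofactors was lost. The lower calls of SND1, MTDH, TSN, NUTF2 and PABPC1 were also lost without normalization (0.123% of genes called lower) and with the deposited table (0.28%). MTDH and TSN lost theirs with median scaling too, and over the settings their effects reached 0.20 and 0.24, above 0. The higher calls of DDX5, HSPA8 and DCP1B were also lost with the deposited table (13.4% of genes called higher). SAFB lost its call without a filter on dim probes.

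Of 9 genes for small RNA tailing and decay, 1 rose: PNPT1, a mitochondrial polynucleotide phosphorylase that interferon is known to induce, by 0.47 (limma, adjusted p = 0.0244), a call that was lost with plain subtraction. TUT7, a uridylyltransferase, had responses of 0.01 in 4KR cells and 0.29 in LGP2 cells, and its probe lies in block 21, whose median difference of the responses was -0.15; the part of that shift in the gene's value was not tested. The PIWI genes PIWIL1 and PIWIL2, the germline relatives of the Argonautes, had responses between -0.04 and 0.06 in both lines, and PIWIL3 and PIWIL4 were not detected on any array.

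Among 9 helicases and partners of the response to double-stranded RNA, 3 rose and 1 fell. RIGI, a sensor of short double-stranded RNA, had responses of 4.00 in 4KR cells and 4.14 in LGP2 cells, and its deposited intensity was 675 in 4KR cells at 12 h against 16.7 at 0 h. IFIH1, the gene of MDA5, had responses of 2.37 in 4KR cells and 2.43 in LGP2 cells. EIF2AK2, the gene of PKR, which TRBP inhibits and PACT activates, had 0.85 in 4KR cells and 0.73 in LGP2 cells. STAU2, a double-stranded RNA transport protein, fell by 0.25. The calls of RIGI and IFIH1 held in 10 of 10 other settings, while EIF2AK2 lost its call with plain subtraction, and STAU2 also without normalization, with median scaling and with the deposited table. ADAR, the RNA editing enzyme, had responses of 0.45 in 4KR cells and 0.85 in LGP2 cells and did not pass (limma, adjusted p = 0.0533). DHX58 itself, whose probe lies in block 24, had deposited intensities of 42.6 in 4KR cells at 12 h and 22.8 at 0 h, and of 51.0 in LGP2 cells at 12 h and 41.4 at 0 h. It did not pass, and this probe does not check whether the transgene's messages are read. All 8 interferon-induced genes, IFNB1 included, rose (limma), and of these OASL, CXCL10 and CCL5 were not well above background at 0 h. IFIT1, whose probe lies in block 24, had responses of 7.08 in 4KR cells and 6.58 in LGP2 cells.

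Genes that host microRNAs were also read, since the arrays measured no microRNA. Whether the host transcripts follow the primary microRNA transcripts was not tested. Of 14 such genes with a probe, 12 were detected, and 0 of 12 rose or fell, beside 7.94% of all genes called higher and 7.28% lower. PANK2, whose intron holds the hairpin of miR-103a, had responses of 0.38 in 4KR cells and 0.19 in LGP2 cells (limma, adjusted p = 0.0737), and SREBF2, the host of miR-33a, had -0.48 in 4KR cells and -0.24 in LGP2 cells (limma, adjusted p = 0.0676). The hosts of miR-26 had responses of -0.05 and -0.04 for CTDSP1, -0.11 and -0.09 for CTDSP2 and -0.21 and -0.06 for CTDSPL, in 4KR cells and in LGP2 cells. The microRNAs below are grouped by the shared seed in capitals, because their hosts are in the list of this paragraph: miR-26a and miR-26b share 1 seed, miR-103a and miR-107 (host PANK1) another.
hsa-miR-26a-5p: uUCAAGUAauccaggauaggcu
hsa-miR-26b-5p: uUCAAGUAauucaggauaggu
hsa-miR-103a-3p: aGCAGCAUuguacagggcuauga
hsa-miR-107: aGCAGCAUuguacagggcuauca
hsa-miR-33a-5p: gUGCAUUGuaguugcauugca

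The signs of some members held in all of 10 other processing settings, which were computed on the same 4 arrays. The 2 filters on dim probes leave a member's value as it is. So does the choice of the brightest probe for each member other than DGCR8, since these have 1 probe. The responses of DGCR8, PRKRA and AGO3 were above 0 in both lines in 10 of 10 settings. Relative to the median of all genes, DGCR8's lay between 0.13 and 0.35 in 4KR cells and between 0.09 and 0.31 in LGP2 cells. AGO2 and AGO4 were lower in 4KR than in LGP2 cells at both times in 10 of 10, AGO2 by -0.40 to -0.07 at 12 h and by -0.23 to -0.13 at 0 h, and AGO3 was higher in 10 of 10. The sign of AGO2's own response to stimulation did change, being above 0 in both lines without normalization and with median scaling, and in LGP2 cells with the deposited table. Without normalization, where the median of all genes shifted by 0.27 in 4KR cells and 0.12 in LGP2 cells, 7 members passed as higher, as did 40.5% of all genes. With median scaling 4 did, DICER1, PRKRA, TARBP2 and XPO5, beside 23.6% of all genes higher and 19.3% lower, and DGCR8 did with the deposited values (0.53, limma, adjusted p = 0.047), beside 13.4%.

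**Figure D4:**
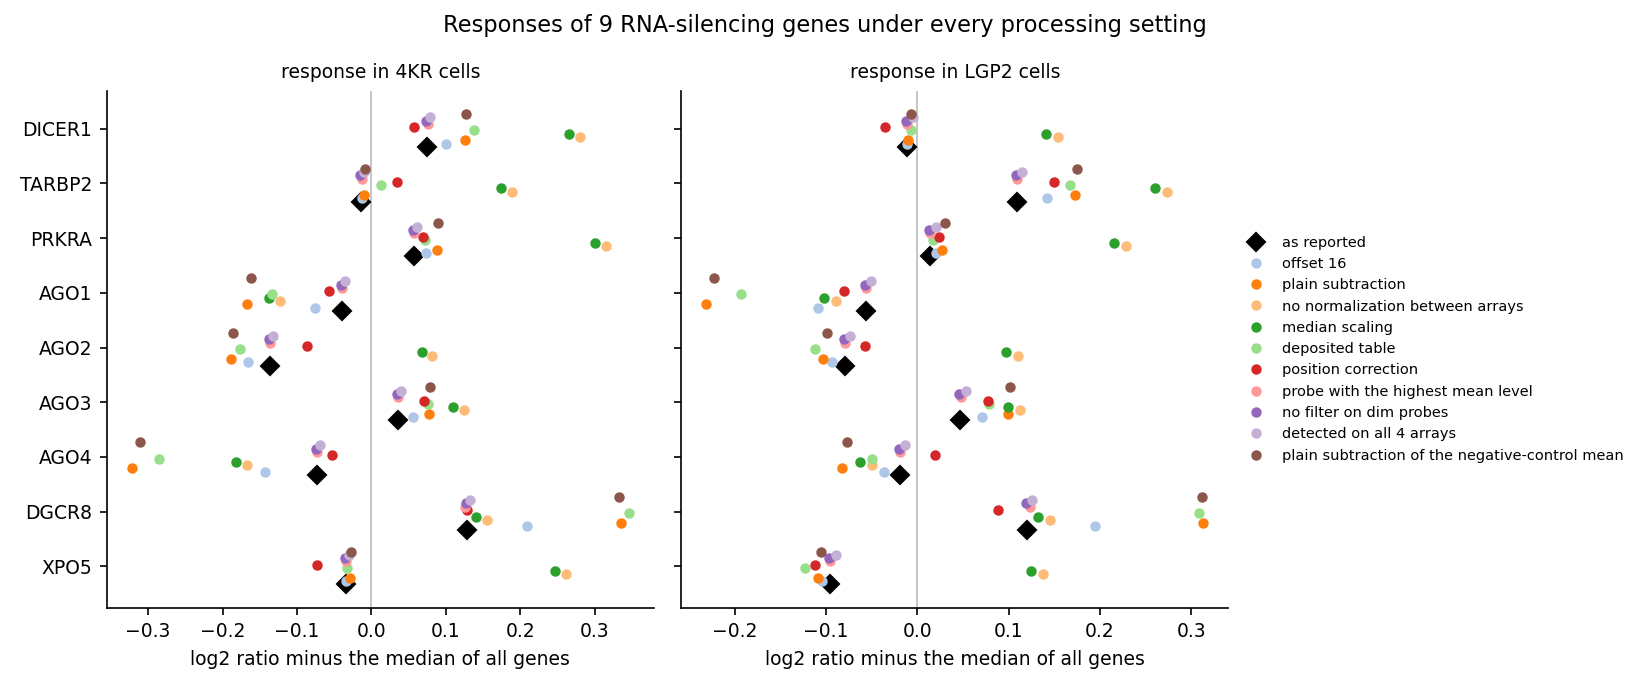
Response (log2 ratio of 12 h over 0 h, minus the median of all genes in the same setting) of the 9 RNA-silencing genes other than DROSHA in 4KR cells (left) and LGP2 cells (right). Diamonds are the values as reported and coloured points the 10 other processing settings. DGCR8 stays above 0 in every setting in both lines, while AGO2 lies on both sides of 0.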

How the data were processed

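RNA was measured on 4 single-colour arrays, 1 per group. Per the labels' protocols, amino allyl aRNA was coupled to Cy5. The deposited scanner tables hold the median intensity of each spot, not normalized, per the file headers; the authors' deposited series table holds intensity values equal to the spot median minus about the mean blank, scaled to an array median of 25. No genome build is named for the array's annotation. Here the blank mean was subtracted, limma 3.58.1 (R 4.3.3) applied normexp with an offset of 50 and quantile normalization, and log2 values of probes of a gene were averaged. The 5 comparisons of single arrays have no test; the additive limma fit (line and time) used lmFit and eBayes over 17085 genes. Other settings tried were an offset of 16, plain subtraction of the mean of the blanks or of the negative controls, no normalization, median scaling, the deposited table, a correction by block, the brightest probe of a gene and 2 other filters on dim probes. All members are named, and from each list the genes past 1.5-fold in either response, up to the 6 largest, or otherwise the 2 largest; other genes named were chosen after their values were seen, as were the calls listed by count. The members and lists were chosen with earlier results of these data known. The number of arrays limits the precision. The p-values reflect only how far the lines or times differ, in the gene itself and, by limma's pooling, over all genes. The platform annotation named 1 gene for 21706 probes, several for 0 and none for 2753; 21674 had a gene ID in the RefSeq table, which changed 0 symbols.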

Additional observations from a re-analysis of the deposited data

Results flagged for a closer look

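Negative control spots, which no comparison uses, passed the detection limit on 20 of 96 spots in 4KR cells and 22 of 96 in LGP2 cells at 12 h, above the 0 in 4KR cells and 1 in LGP2 cells at 0 h. The responses of 2 members detected on all 4 arrays had opposite signs in the lines, with a difference (4KR minus LGP2) of 0.0851 for DICER1 and -0.124 for TARBP2. With 1 array a group these differences were not tested. Among all genes detected on all 4 arrays they lay at percentile 82.5 for DICER1 and 11.7 for TARBP2. The residual SD of the additive fit was 0.0722 per array, and a difference that combines 4 arrays has a wider spread than that.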

How the results depend on the processing

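Over 10 other settings, 9 planned and 1 chosen after seeing the data, calls of members could only be gained, since none passed with the settings used in the report. Without normalization between arrays the members' median response was 0.405 in 4KR cells and 0.244 in LGP2 cells, the median difference of the responses was 0.156, the median of 4KR over LGP2 at 12 h was 0.123, and 7 members were called higher with stimulation. With median scaling the median responses were 0.117 in 4KR cells and 0.107 in LGP2 cells, with 4 members called. With the deposited table they were 0.177 and 0.245 in the same order, with 1 called. DROSHA made every count of 1 past 1.5-fold: with plain subtraction, 1 higher in the response of LGP2 cells, 1 lower in 4KR than in LGP2 cells at 12 h and 1 higher at 0 h; with the deposited table, 1 lower at 12 h; with subtraction of the negative-control mean, 1 higher in LGP2 cells and 1 lower at 12 h. Over all genes, stimulation called between 59 and 6927 genes higher and between 0 and 3290 lower, and line at most 17 higher and 20 lower. Genes past 1.5-fold ranged from 240 to 2645 higher and 1 to 675 lower in 4KR cells, and from 251 to 3202 higher and 8 to 765 lower in LGP2 cells. The cause was not tested. Line is a term of the stimulation fit, which therefore is a paired analysis of the times within each line. No further pairing was possible, because each group has 1 array and no replicate numbers to pair. Leaving out an array leaves no residual degrees of freedom.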

Other observations

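Of the cofactors, 2 passed 1.5-fold in the difference of the responses, with no test. They were 1 of 6 export cofactors and 1 of 9 genes for small RNA tailing and decay. None passed of 11 nuclear processing cofactors, 11 genes for RISC loading and 29 GW182 proteins and effectors. Of all genes, 0.451% passed as higher and 0.426% as lower. RCC1, the exchange factor of RAN, had mean responses over 2 probes of -0.31 in 4KR cells and 0.53 in LGP2 cells. XRN2, a nuclear exonuclease, had 0.55 in 4KR cells and -0.29 in LGP2 cells. The XRN2 probe lies in block 24, where the median difference of the responses was 0.22; the part of that shift in its value was not tested.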
